A study of Drosophila melanogaster with 8 samples.

Results

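The transcriptome described here is that of wild type neuroblasts, the neural stem cells of the larval brain of Drosophila melanogaster. Its members are the 5 libraries labelled as wild type neuroblast, of 8 libraries in the series, and they were chosen by that label and by no measured value. They form 3 replicates, since neuroblast 1 is 1 library while neuroblast 2 and neuroblast 3 are each the mean of a pair of technical replicates. The series sequenced polyadenylated RNA of neuroblasts and of the neurons they give rise to. Both cell types came from larval brains dissected late in the third instar and were separated by fluorescence-activated cell sorting (FACS). In all animals asense-Gal4, a driver active in neural progenitors, expressed UAS-stingerGFP, a nuclear green fluorescent protein. Parents laid eggs over 24 h and their offspring were reared at 25 degrees for 5 days before dissection. The same reporter line supplied the neuroblasts and the neurons, so the presence of the reporter does not by itself separate them. The labels do not say how many brains were pooled or whether the replicates were separate sorts, so the spread between replicates may be technical. No p-value is given, because the description stays inside 1 cell type.

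A neuroblast divides asymmetrically and repeatedly, keeping a large daughter that remains a stem cell and budding off a small daughter that goes on to make neurons or glia. Apical polarity proteins of the Par complex direct fate determinants to the opposite, basal side, from where the small daughter inherits them. The stem cell daughter grows back to its former size before it divides again, so its RNA holds the programme of self-renewal together with those of growth, DNA replication and mitosis.

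Levels are in FPKM, fragments scaled to the length of the transcript and to the size of the library, as the authors deposited them. Since FPKM is already divided by length, a gene's share of the FPKM sum stands for a share of transcripts rather than of reads. Levels still moved with transcript length between replicates, as given below. Comparisons between genes of unlike length, and class shares, are therefore approximate. A gene counted as expressed when it reached 1 FPKM in all 3 replicates. Fragments could be read back from the Cufflinks interval for single-transcript genes. Neuroblast 1 had 2278610 of them, the neuroblast 2 libraries had 2647307 and 2184515, and the neuroblast 3 libraries had 5903924 and 16282423. A value near 1 FPKM (0.8 to 1.25) therefore rested on a median of 9.0 fragments in the library of neuroblast 1 and of 48.5 in the deepest library of neuroblast 3. The file names place neuroblast 1 and neuroblast 2 on 1 flow cell and the libraries of neuroblast 3 on others, so neuroblast 3 and its flow cells cannot be told apart.

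The defining neuroblast genes were all expressed, and at high ranks. The gene mira (3R, positions 15757521 to 15760842 as the files give them) encodes Miranda, the adaptor that carries determinants to the basal side, and it read 734, 831 and 980 FPKM in neuroblast 1, 2 and 3. Its mean was 848 ± 124 (SD, n = 3) and its ranks were 124, 107 and 121 among the expressed genes. The self-renewal factor dpn (2R, 4116476 to 4119832), a bHLH repressor, read 135, 119 and 152 FPKM (136 ± 16.5, SD, n = 3). These replicates lay close together, and dpn ranked 600, 574 and 667.

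The gene wor (2L, 15423293 to 15425585), which encodes the Snail family zinc finger protein Worniu, read 106, 130.2 and 156 FPKM (131 ± 25.0, SD, n = 3). The gene grh (2R, 13690294 to 13729584) encodes Grainyhead, a factor that keeps postembryonic neuroblasts dividing, and it read 172, 154 and 118 FPKM (148 ± 27.7, SD, n = 3). CycE (2L, 15727762 to 15748155) encodes cyclin E, which drives entry into S phase, and it read 241, 198 and 96.4 FPKM (179 ± 74.5, SD, n = 3). CycE had the widest spread of the 5 markers, with neuroblast 3 lowest. The neuron replicates gave 3.12 and 3.51 FPKM for CycE, 2.35 and 4.27 for dpn, and 8.42 and 10.49 for mira, so for these genes no neuron value reached any neuroblast value. For wor they gave 8.13 and 10.2 FPKM and for grh 1.39 and 1.88, again below all 3 neuroblast replicates. The order of the neuroblast replicates was not stable for every marker. Scaled to the same median ratio, CycE and grh were still lowest in neuroblast 3, at 81.6 and 99.9 FPKM, while mira and wor were then highest in neuroblast 2, at 934 and 146 FPKM. The value of dpn, highest in neuroblast 3 as deposited, was then lowest there, at 136, 134 and 129 FPKM in neuroblast 1, 2 and 3.

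Of the 14210 genes in the files, 6463 (45.5%) were expressed in all 3 replicates. A further 532 reached 1 FPKM in 2 of the 3 replicates, 419 in only 1, and 6796 in none. The replicates taken singly had 7201, 7030 and 6641 genes at or above 1 FPKM in neuroblast 1, 2 and 3. Neuroblast 3, the deepest, thus had the fewest. In it alone 439 genes lay under 1 FPKM, against 41 in neuroblast 1 alone and 52 in neuroblast 2 alone, and 247 genes reached the threshold in neuroblast 1 alone. An exact value of 0 was listed in all 5 libraries for 3536 genes. Among them were 13 of the 13 mitochondrially encoded genes in the files, such as mt:CoI, mt:CoII and mt:Cyt-b, which every cell uses. For these genes a value of 0 is not a measurement of absence, and for the others it need not be one.

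The mean level of the expressed genes had a median of 24.0 FPKM, and its quartiles were 11.2 and 53.7 FPKM. Most of them, 4184 genes or 64.7%, lay between 10 and 100 FPKM. Below 10 FPKM were 1434 expressed genes, 734 lay between 100 and 1000 FPKM, and 111 were above 1000 FPKM. The 95th percentile was 243 FPKM and the 99th was 1761 FPKM. Transcripts were concentrated in few genes. The 165 highest genes of neuroblast 1, the 184 highest of neuroblast 2 and the 107 highest of neuroblast 3 held 50% of the FPKM of the expressed genes. The 10 highest held 12.3%, 9.36% and 18.6%, so neuroblast 3 was the most concentrated. Among protein-coding genes alone neuroblast 3 was still the most concentrated, with 164 genes making up 50%, against 206 in neuroblast 2. The plot of level against rank shows the 3 replicates running together from about rank 100 on and separating at the top.

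**Figure D1:**
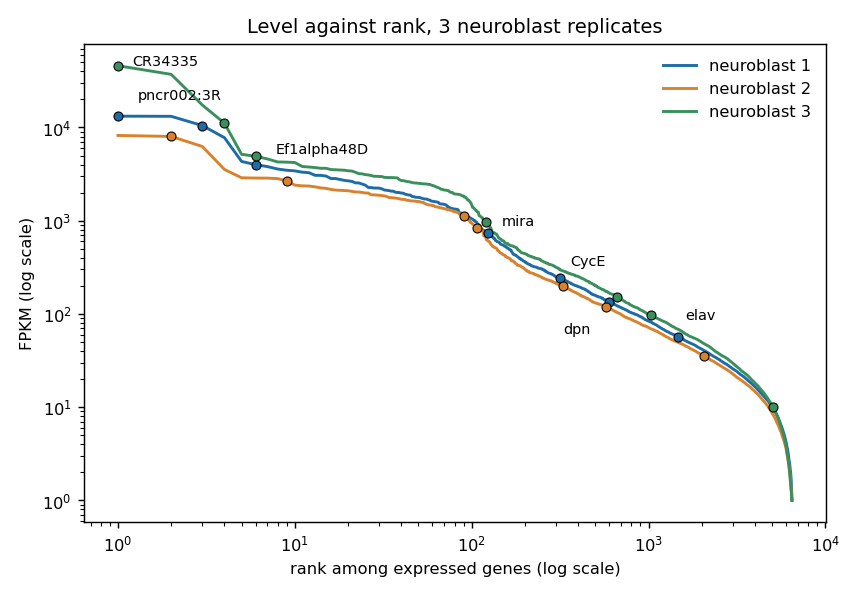
FPKM of the expressed genes (vertical, log scale) against their rank within each replicate (horizontal, log scale), 1 line per replicate. Points mark mira, CycE, dpn, CR34335, pncr002:3R, Ef1alpha48D and elav in each of the 3 replicates. The line of neuroblast 3 starts at 45965 FPKM with CR34335, while those of neuroblast 1 and neuroblast 2 start near 13225 and 8215 FPKM.

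Short and long noncoding RNAs, ribosomal protein mRNAs and the mRNAs of translation factors and tubulins led the list. CR34335 (X, 3439895 to 3440143), a noncoding gene of 249 bases, read 10483, 1130 and 45965 FPKM in neuroblast 1, 2 and 3. CR40469 (X, 18880 to 19093), a noncoding gene of 214 bases, read 4324, 1378 and 37135 FPKM. Both were highest in neuroblast 3 and lowest in neuroblast 2, and together they held 2.70%, 0.552% and 11.1% of the FPKM of the expressed genes. FPKM divides by a small length in genes this short. With the SD above the mean for both, their first places by mean level rest on neuroblast 3.

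Long noncoding RNAs followed. The transcript pncr002:3R (3R, 2525274 to 2525886; lncRNA:CR33938 in the reference annotation) read 13225, 8014 and 11133 FPKM (10791 ± 2622, SD, n = 3). CR43283 (3R, 7073825 to 7081845) is cherub in the reference annotation, an RNA known from Drosophila brain tumour work to be inherited asymmetrically at neuroblast division, and it read 7776, 6256 and 1240 FPKM. It was thus among the 5 highest genes by mean, yet neuroblast 3 lay below both of the other replicates. Among the noncoding genes on the X chromosome, roX1, an RNA of the dosage compensation complex, read 1178, 893 and 1026 FPKM, while roX2 of the same complex read 17.9, 3.24 and 5.73 FPKM. In all, 60 of the 452 noncoding genes in the files were expressed, with a median of 9.94 FPKM. Their share of FPKM was 7.396%, 4.51% and 13.2% in the 3 replicates, a spread set largely by CR34335 and CR40469. Without these it was 3.71% on average.

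Of the protein-coding genes RpL41, a very short ribosomal protein, was highest with 13176, 8215 and 17393 FPKM. Ef1alpha48D (2R, 7779597 to 7783025), the elongation factor that brings aminoacyl-tRNA to the ribosome, read 3990, 2666 and 4911 FPKM (3856 ± 1128, SD, n = 3). The main tubulins were close to it, betaTub56D with 3585, 2863 and 3538 FPKM and alphaTub84B with 2675, 2166 and 4247 FPKM. Then came eIF-5A, a translation factor, with 2543, 1129 and 3817 FPKM, and Hsc70-4, the constitutive cytosolic chaperone, with 1885, 2251 and 3197 FPKM. As deposited, neuroblast 2 was lowest for each of these genes except Hsc70-4, for which neuroblast 1 was. Over all expressed genes 50.6% were lowest in neuroblast 2 as deposited and 30.1% scaled by the median ratio, so this order is not particular to these genes.

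The composition by gene class was led by the ribosome. Cytosolic ribosomal protein genes held 27.3%, 28.0% and 29.7% of the FPKM of the expressed genes (28.3% ± 1.2, SD, n = 3), a share that varied less than the noncoding share did. Of the 93 such genes in the files 87 were expressed, and they made up 76 of the 111 genes above 1000 FPKM and 72 of the 100 highest genes. Their median mean level was 1820 FPKM, with RpL23, RpS29 and RpLP1 next after RpL41 at 3169 ± 541, 3161 ± 523 and 3102 ± 981 FPKM (SD, n = 3). The 10th and 90th percentiles over the expressed members were 874 and 2715 FPKM, so most members lay within a narrow band.

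Where the genome holds a duplicated ribosomal protein gene, usually 1 copy carried the level. RpS5a averaged 1766 FPKM and RpS5b 2.40 FPKM, RpS19a 1820 FPKM and RpS19b 3.59 FPKM, and RpS10b 1500 FPKM and RpS10a 1.57 FPKM. RpL22 averaged 862 FPKM, while RpL22-like read 0.12 and 0.043 FPKM in neuroblast 1 and 3 and was listed at 0 in neuroblast 2. In other pairs both copies were high, with RpS14a at 923 and RpS14b at 882 FPKM, and RpL34a at 449 and RpL34b at 1044 FPKM. RpS14a and RpS14b are near-identical, so how their fragments were divided is uncertain.

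Translation factors added 3.23% ± 0.132 (SD, n = 3) of the FPKM, with 28 of 28 matched genes expressed. After Ef1alpha48D and eIF-5A the leading members were Ef2b, the elongation factor that moves the ribosome along, at 2227 ± 814 FPKM, and Tctp, a growth-linked protein, at 2005 ± 557 FPKM (SD, n = 3). The genes of the nucleolus, where ribosomes are assembled, were all expressed (28 of 28) at a much lower median of 61.2 FPKM. The highest of them were the small nucleolar ribonucleoprotein components hoip, Nop56, Fib and Nop60B, at 268, 256, 253 and 203 FPKM.

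Genes of protein folding and turnover formed further classes. Chaperones held 2.64% ± 0.546 (SD, n = 3) of the FPKM, and 25 of 26 were expressed. The small heat shock proteins Hsp27, Hsp23 and Hsp26 averaged 1892 ± 171, 1884 ± 193 and 1683 ± 504 FPKM and Hsp83, the fly Hsp90, 1776 ± 444 FPKM (SD, n = 3). These levels are in the range of ribosomal protein genes. The inducible Hsp68 read 359, 473 and 289 FPKM and Hsp70Bb 85.9, 18.6 and 292 FPKM, while Hsp70Aa read 9.17, 1.37 and 35.3 FPKM. The Hsp70 copies are near-identical, so their separate values are uncertain. Proteasome genes held 1.00% ± 0.106 (SD, n = 3), with 28 of 29 expressed between 104 and 330.3 FPKM.

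Splicing and RNA-binding genes were expressed almost in full, 37 of 39, with a median of 216 FPKM and a share of 1.88% ± 0.436 (SD, n = 3). Next after CG17838, described below, stood B52, an SR splicing factor gene, with 594, 469 and 706 FPKM and the RNA helicase gene Rm62 with 513, 403 and 614 FPKM. Hrb27C, an hnRNP gene, read 714, 443 and 369 FPKM and was thus lowest in the replicate in which B52 and Rm62 were highest. The 2 members that were not expressed, Rbp9 and bru-3, are neural RNA-binding genes, and bru-3 read 11.8, 2.87 and 0.194 FPKM.

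The cytoskeleton list held 17 expressed genes of 25, with a share of 2.10% ± 0.120 (SD, n = 3). Besides the tubulins, the cytoplasmic actin gene Act5C averaged 1607 ± 279 FPKM and tsr, the fly cofilin gene, 1287 ± 501 FPKM (SD, n = 3). The 8 members that were not expressed were the muscle actins Act57B, Act87E, Act88F and Act79B and the tubulin isotypes alphaTub67C, alphaTub85E, betaTub85D and betaTub97EF, all under 1 FPKM in every replicate. Of the 20 stress and early response genes 14 were expressed, with a median of 35.0 FPKM. Outside the heat shock genes Thor, the fly 4E-BP gene that restrains translation, was highest with 51.7, 33.5 and 48.1 FPKM, while kay, the fly Fos gene, averaged 6.13 ± 1.93 FPKM (SD, n = 3) and Jra, the fly Jun gene, 6.24 FPKM.

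Energy metabolism was expressed in full. All 32 listed nuclear genes of oxidative phosphorylation were expressed, with a median of 279 FPKM, a lowest member at 105 FPKM and a share of 1.83% ± 0.0509 (SD, n = 3). The ATP synthase subunits ATPsyn-beta and blw led with means of 881 and 845 FPKM, followed by sesB, the mitochondrial ADP/ATP carrier, with 803 FPKM. All 12 glycolysis genes were expressed, with a median of 145 FPKM. They were led by Gapdh1 at 359 ± 141, Eno at 358 ± 94.9 and PyK at 302 ± 81.5 FPKM (SD, n = 3). ImpL3, lactate dehydrogenase, was lower and varied more, with 65.4, 38.6 and 6.02 FPKM. All 72 mitochondrial ribosomal protein genes were expressed too, with a median of 59.9 FPKM and a share of 0.80% ± 0.0434 (SD, n = 3).

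**Figure D2:**
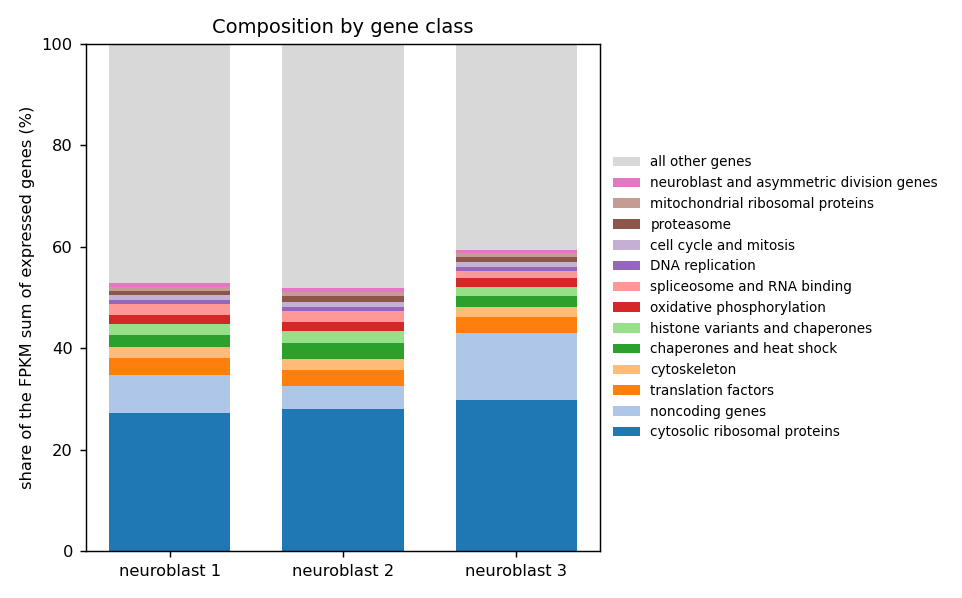
Share of the FPKM sum of the expressed genes (vertical, percent) by gene class in each of the 3 neuroblast replicates, with each gene counted in 1 class only. Cytosolic ribosomal proteins take 27.3%, 28.0% and 29.7%, and the noncoding segment is largest in neuroblast 3 at 13.2%.

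The machinery of proliferation was present as complete sets. All 40 matched DNA replication genes and all 46 genes of the cell cycle and mitosis were expressed, with medians of 55.4 and 96.6 FPKM, against 24.0 FPKM over all expressed genes. They held 0.830% ± 0.0490 and 0.923% ± 0.0864 (SD, n = 3) of the FPKM. The replication clamp PCNA (mus209 in the files) read 593, 395 and 816 FPKM and led the replication list. The 6 subunits of the MCM helicase, which unwinds DNA at the fork, had means from 175 (Mcm5) to 352 FPKM (Mcm7), a ratio of 2.01. The 6 subunits of the origin recognition complex, which marks where replication starts, lay lower, from 35.6 to 59.8 FPKM, a ratio of 1.68. Subunits within each complex were thus of like level, while the complexes differed. Top2, the topoisomerase that untangles chromosomes, averaged 270 ± 69.7 FPKM and geminin, the inhibitor of relicensing, 246 ± 34.0 FPKM (SD, n = 3).

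The cyclins spanned a wider range, from CycD, the G1 cyclin, at 22.2 ± 6.10 FPKM to CycA at 525 ± 138 FPKM (SD, n = 3). The mitotic cyclins CycB3 and CycB averaged 319 ± 17.3 and 312 ± 84.9 FPKM, and CycB3 read nearly alike in all replicates, at 339, 308 and 309 FPKM. String (stg), the phosphatase that triggers mitosis, averaged 262 ± 24.4 FPKM and the mitotic kinase polo 280 ± 88.1 FPKM (SD, n = 3).

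Chromatin proteins included some of the most abundant nuclear mRNAs. Df31, a decondensation factor that binds histones, averaged 1978 ± 127 FPKM, HmgD, a high mobility group protein, 1944 ± 427 FPKM, and the histone variants His3.3A and His2Av 1546 ± 127 and 1051 ± 186 FPKM (SD, n = 3). The listed histone variants and histone chaperones held 2.03% ± 0.279 (SD, n = 3) of the FPKM, with 16 of 18 expressed. Of 37 chromatin regulators 36 were expressed with a median of 56.0 FPKM. The gene of heterochromatin protein 1 (HP1a) led with 588, 395 and 931 FPKM. The insulator gene mod(mdg4) followed with a mean of 515 FPKM, and lola, a BTB zinc finger gene that helps keep neurons differentiated, with 443 FPKM. On the opposite strand HmgD overlaps HmgZ, and mod(mdg4) overlaps several small genes, so the level of each is uncertain by what its neighbour contributes.

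The 40 matched genes of neuroblast identity and asymmetric division were expressed except for esg, a Snail family gene, which read 5.31, 3.80 and 0.836 FPKM. The median of the 39 expressed members was 55.5 FPKM, 26 were lowest in neuroblast 3 and 9 were highest in it. Over all expressed genes 22.0% were lowest and 62.6% highest in neuroblast 3, in FPKM as deposited. Scaled by the median ratio, 79.5% of the list and 37.5% of all expressed genes were lowest in neuroblast 3. The neuron marker sums given below were lowest in neuroblast 3 as well, and their part in this was not tested.

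Among the genes of neuroblast identity, asense (ase), the proneural gene whose promoter drove the reporter, read 105, 58.1 and 69.4 FPKM. The gene klumpfuss (klu), a zinc finger factor, read 71.6, 61.1 and 46.3 FPKM. The Notch target E(spl)mgamma (HLHmgamma in the files) read 246, 169 and 159 FPKM, above the receptor Notch (N) with 46.8, 71.8 and 44.0 FPKM and its ligand Delta (Dl) with 27.2, 33.2 and 17.7 FPKM. The transcription cofactor gene nab read 319, 228 and 267 FPKM. For each of these genes the highest replicate was less than 2 times the lowest, and no replicate was always highest.

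The basal cargo genes spanned a wider range of levels than the apical complexes, a difference set largely by mira, alone at the top of that range. From pon, the Numb adaptor, with 62, 72 and 87.1 FPKM, to mira the 6 cargo genes spanned a ratio of 11.5. The ratio was 2.03 in the 3 genes of the Par complex and 5.26 in the 5 spindle orientation genes of the Pins complex. Such a ratio also depends on the number of genes in the set. Next under mira, at a mean of 848 FPKM, came stau at 390 FPKM, against 73.7 FPKM for pon. The RNA-binding adaptor gene stau read 379, 450.2 and 342 FPKM. The translational repressor gene brat read 209, 208 and 114 FPKM and numb, the Notch inhibitor, 104, 118 and 90.8 FPKM. The homeodomain factor gene pros, which ends self-renewal in the daughter, read 139, 91.6 and 62.6 FPKM. It overlaps KP78a, of similar level, on the opposite strand, so its values are uncertain. The neuron replicates read 180.3 and 457 FPKM for pros and 649 and 601 FPKM for brat, above every neuroblast replicate of these genes.

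At the apical side, baz, aPKC and par-6 of the Par complex averaged 23.0 ± 3.51, 35.4 ± 5.43 and 46.7 ± 8.13 FPKM (SD, n = 3), a ratio of 2.03 between highest and lowest. The spindle orientation genes ranged from raps, which encodes Pins, with 14.7, 16.7 and 18.8 FPKM, to G-ialpha65A, the G protein subunit that binds Pins, with 84.1, 68.9 and 111 FPKM. Inscuteable (insc), which links the Par and Pins complexes, read 69.2, 61.7 and 94.2 FPKM, and mud, which anchors dynein, read 45.3, 42.3 and 25.9 FPKM. The cortical tumour suppressors l(2)gl, scrib and dlg1 averaged 111 ± 30.2, 57.4 ± 2.67 and 47.4 ± 18.6 FPKM (SD, n = 3). These apical, spindle and cortical genes thus ranged from rank 758 (l(2)gl) to rank 4045 (raps) by mean level, and mira ranked 121.

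Among the temporal genes, which tell early from late neuroblasts in the larva, Syp and Imp stood at opposite ends. CG17838 is Syp (Syncrip) in the reference annotation, an RNA-binding protein of late neuroblasts, and it read 3478, 2830 and 988 FPKM with ranks 9, 8 and 120. It was the highest protein-coding gene outside translation, the cytoskeleton and the chaperones. Imp, the RNA-binding protein that opposes it in early neuroblasts, read 8.44, 4.88 and 1.63 FPKM. The early factor gene chinmo read 33.8, 21.8 and 6.43 FPKM and the late genes Eip93F and br 74.6, 65.9 and 19.1 FPKM and 110, 58.5 and 13.2 FPKM. All 5 were lowest in neuroblast 3. The neuron replicates read 81.2 and 135 FPKM for chinmo, 94.3 and 106 FPKM for Eip93F and 561 and 874 FPKM for br, above each neuroblast value.

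**Figure D3:**
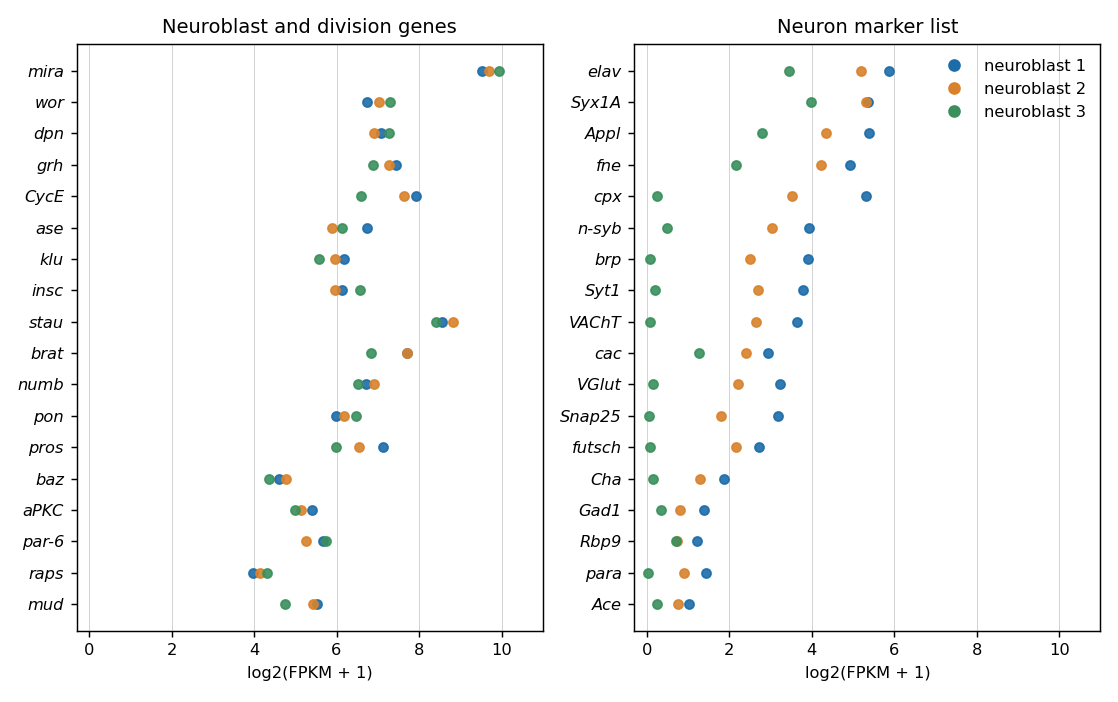
Level as log2(FPKM + 1) (horizontal) of 18 neuroblast and division genes (left) and of the 18 genes of the neuron marker list (right), 1 point per neuroblast replicate. The neuroblast genes drawn are a chosen part of their lists, and widely spread members such as nerfin-1 and br are not drawn. Among those drawn, CycE reads 241, 198 and 96.4 FPKM in neuroblast 1, 2 and 3. Every neuron marker is lowest in neuroblast 3, where brp and Snap25 read 0.0553 and 0.0438 FPKM.

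Markers of other cell types were read as a check of the label. Of 18 matched neuron markers 5 were expressed in all 3 replicates. The RNA-binding protein gene elav, the standard neuron marker, read 57.2, 35.3 and 10.01 FPKM, against 321 and 435 FPKM in the neuron replicates. Syx1A, a syntaxin that also serves general secretion, read 40.3, 38.5 and 14.8 FPKM, Appl 40.6, 19.2 and 5.96 FPKM and fne 29.3, 17.8 and 3.52 FPKM. The fifth was the calcium channel gene cac, with 6.74, 4.35 and 1.41 FPKM. Each of the 18 markers was highest in neuroblast 1 and lowest in neuroblast 3 as deposited. Scaled by the median ratio or to the protein-coding sum, all 18 were still lowest in neuroblast 3, and all but Syx1A, then highest in neuroblast 2, were highest in neuroblast 1. The synaptic genes brp, n-syb and cpx read 14.0, 14.2 and 38.5 FPKM in neuroblast 1 but 0.0553, 0.416 and 0.197 FPKM in neuroblast 3. The sum over the 18 genes was 296, 162 and 38 FPKM, against 1395 and 1968 FPKM in the neuron replicates. For the 17 markers with a neuron mean of at least 5 FPKM, the median level relative to that mean was 15.1%, 7.07% and 0.471%. In bulk RNA, fewer neurons in the sort and less neuronal RNA per cell cannot be told apart. The neuronal transcription factor gene nerfin-1 was ordered in the same way, with 95.2, 39.9 and 3.08 FPKM against 805 and 1041 FPKM in the neuron replicates.

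Of 19 glia markers 6 were expressed, led by nrv2, a sodium pump subunit, at 123 ± 36.4 FPKM and Eaat1, a glutamate transporter, at 65.1 ± 5.09 FPKM (SD, n = 3). The defining glial factor gene repo read 1.06, 0.529 and 0.207 FPKM and gcm 3.65, 1.48 and 0.352 FPKM, while 9 of the 19 were under 1 FPKM in all replicates. The list summed to 314, 231 and 269 FPKM, and scaled by the median ratio to 317, 259.9 and 228 FPKM. As deposited 3 of the 6 expressed glia markers were lowest in neuroblast 3, and 5 of the 6 were under either scaling. Eaat1 and nrv2 thus stood far above repo, and Eaat1 read nearly alike in the 3 replicates as deposited, 67.5, 59.3 and 68.6 FPKM.

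Of the 10 markers of type II neuroblasts and their intermediate progenitors, which build the central complex, 7 were expressed but low, with a median of 6.36 FPKM. Of these, erm read 10.6, 5.53 and 2.92 FPKM, and tll 15.9, 12.4 and 22.7 FPKM. Whether the asense-Gal4 reporter marked type II neuroblasts for the sort was not tested. The 10 markers summed to 90.5, 62.5 and 52.1 FPKM in neuroblast 1, 2 and 3, against 355 and 454 FPKM in the neuron replicates. Of 15 optic lobe markers 12 were expressed, led by hth with 65.9, 51.6 and 23.7 FPKM, and the temporal series genes ey and slp2 averaged 11.8 and 19.2 FPKM. The 15 markers summed to 211, 143 and 119 FPKM, against 489 and 649 FPKM in the neuron replicates. Both lists were thus higher in the neuron replicates, and the part of neuronal RNA in their neuroblast values was not tested. Of the tissues next to the brain, 1 of 14 hemocyte markers was expressed, the scavenger receptor gene crq with 20.3, 12.2 and 41.5 FPKM. It overlaps ex on the opposite strand, and He, nimC1 and proPO-A1 were listed at 0 in all 5 libraries. For muscle 1 of 14 (Mef2, 3.58 ± 1.2 FPKM, SD, n = 3), for fat body 0 of 9 and for trachea and epidermis 1 of 9 (Gasp, 3.87 ± 1.98 FPKM, SD, n = 3) were expressed. Of 9 germ line markers, aub and vas, genes of the piRNA pathway, were expressed with 10.2, 6.99 and 19.2 FPKM and 3.49, 3.54 and 3.81 FPKM. On the opposite strand aub, with a mean of 12.1 FPKM, overlaps CG16833, with a mean of 14.4 FPKM, so the values of aub are uncertain.

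The spread between replicates was moderate for most genes and was larger than counting error at every level. The SD of log2(FPKM + 1) over the 3 replicates had a median of 0.35 and quartiles of 0.22 and 0.50, and the coefficient of variation (CV, the SD over the mean) had a median of 26.2%. The highest replicate exceeded the lowest more than 2 times in 1729 genes (26.8%) and more than 10 times in 29. Between technical replicates the median SD was 0.06 in neuroblast 2 and 0.04 in neuroblast 3. Between replicates it was 0.18 for neuroblast 1 and 2, 0.32 for neuroblast 1 and 3, and 0.37 for neuroblast 2 and 3. Neuroblast 1 and 2 were thus the closest pair, and neuroblast 3 stood apart. The Spearman rho across the 6463 genes, which are not independent replicates, was 0.959 for neuroblast 1 and 2 and 0.913 and 0.919 for the pairs with neuroblast 3, while the technical pairs reached 0.994 and 0.999.

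The spread did not shrink with the number of fragments behind a value. For genes with a single transcript the counting CV, which covers counting error only, fell from a median of 10.48% between 1 and 10 FPKM to 4.34%, 2.03% and 0.744% in the ranges 10 to 100, 100 to 1000 and over 1000 FPKM. The CV between replicates of the same genes was 27.9%, 26.0%, 28.8% and 30.0% in these 4 ranges, so it stayed level while counting error shrank.

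The gene classes differed in spread between replicates, in FPKM as deposited. Against the median SD of 0.35 over all expressed genes, the 5 markers had 0.28, histone variants and chaperones 0.27 and the identity and asymmetric division list 0.36. Cytosolic and mitochondrial ribosomal proteins had 0.51 and 0.47, noncoding genes 0.57, type II markers 0.60 and the 5 expressed neuron markers 1.24. Scaled by the median ratio, the median SD over all expressed genes was 0.28. The class values were not recomputed on that scale, so part of their differences may come from the scale of the replicates. In FPKM as deposited, all 28 proteasome genes, 38 of 40 replication genes and 70 of 87 ribosomal protein genes were highest in neuroblast 3. Scaled by the median ratio these counts were 26, 31 and 53, against 39.8% of all expressed genes, and scaled to the protein-coding sum they were 18, 24 and 44, against 29.1%. The FPKM sum of neuroblast 3 was itself the highest, 747038 against 551675 in neuroblast 1 and 456739 in neuroblast 2.

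The steadiest gene with a mean of at least 10 FPKM was CG5412, with 40.3, 40.5 and 40.5 FPKM. CG9253 (pths in the reference annotation), a helicase gene, read 186, 187 and 188 FPKM, and slgA, a proline dehydrogenase gene, averaged 72.6 ± 0.418 FPKM (SD, n = 3). At the other end were short and repeated genes. The histone gene His2B:CG17949, of a family of near-identical copies, read 102, 432 and 4.30 FPKM. RpL38 read 311, 82.6 and 2906 FPKM and CG40002 (ND-AGGG in the reference annotation) 7.99, 6.46 and 187 FPKM. The RNA of RNase P (RNaseP:RNA) read 105, 359 and 14.0 FPKM. The remaining genes of widest spread held 2 neuronal genes lowest in neuroblast 3, nerfin-1 and Ank2, a cytoskeletal adaptor of axons with 43.4, 22.7 and 1.3 FPKM. Hsromega, a noncoding stress RNA, read 717, 349 and 38.8 FPKM. The antimicrobial peptide gene CecA1 stood out as highest in neuroblast 3 with 114 FPKM, against 13.8 and 17.5 FPKM in the others.

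A gap of more than 1 on the log2 scale from both other replicates was counted among the 5029 expressed genes with a mean of at least 10 FPKM. Neuroblast 3 stood below both others in 147 genes and above both in 147. The neuron mean lay above all 3 neuroblast replicates for 125 of the genes it was lowest in (85.0%) and for 0 of those it was highest in, against 23.4% over the 5029 genes. These shares use the same neuroblast values that set the gap, and a gene with a high value in neuroblast 3 is less likely to have a neuron mean above it. Neuroblast 1 stood above both others in 51 genes, of which 84.3% had such a neuron mean, and below in 15. Neuroblast 2 stood above both others in only 3 genes and below both in 158. All these gaps are in FPKM as deposited, in which 9.28% of all expressed genes were highest and 50.6% lowest in neuroblast 2. The genes that set neuroblast 3 apart as low had a median reference transcript length of 5052 bases and those that set it apart as high 910 bases, against 1886.5 bases over the genes with a length. Those low in neuroblast 2 had a median of 949 bases.

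Transcript length moved with the replicate over the whole transcriptome as well. In the 110 expressed genes of up to 500 bases the median difference from the replicate mean on the log2(FPKM + 1) scale was 0.49 in neuroblast 3 and -0.33 in neuroblast 2. In the 884 genes over 4000 bases it was -0.21 in neuroblast 3, 0.07 in neuroblast 2 and 0.15 in neuroblast 1. Short transcripts thus read high and long transcripts low in neuroblast 3 relative to the others. Neuronal genes, long genes and low values in neuroblast 3 went together, and the part of each was not tested.

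**Figure D4:**
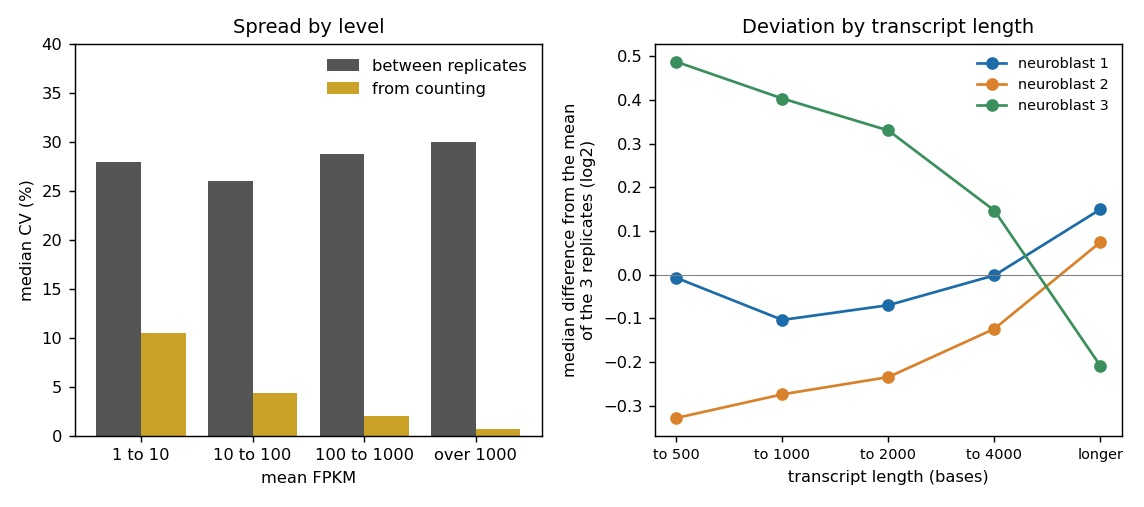
Left, median CV over the replicates and median CV from counting alone (vertical, percent) for single-transcript genes in 4 ranges of mean FPKM. Right, median difference of each replicate from the mean of the 3 on the log2(FPKM + 1) scale by reference transcript length, with neuroblast 3 going from 0.49 in the shortest class to -0.21 in the longest.

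The small chromosome 4, which is largely heterochromatic, behaved unlike the other arms. Of its 85 genes 57 (67.1%) were expressed, against 44.7% on arms 2L, 2R, 3L and 3R and 51.0% on the X. The median level of its expressed genes was 47.5, 17.9 and 22.8 FPKM in neuroblast 1, 2 and 3, against 23.3, 20.5 and 27.0 FPKM on the 4 large autosome arms. In 56 of the 57 genes neuroblast 1 was above neuroblast 2, as it was in 66.3% of the genes of the large arms. The median log2 difference between neuroblast 1 and 2 was 1.14 on chromosome 4 and 0.15 on the large arms. These 2 replicates share a flow cell, and the technical libraries of neuroblast 2 gave chromosome 4 medians of 17.1 and 18.7 FPKM. The X chromosome showed no such difference, with medians of 21.6, 20.1 and 22.5 FPKM.

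Heterochromatic sequence of the autosomes gave values of the same kind. Of 58 genes on the arms 2LHet, 2RHet, 3LHet and 3RHet 29 were expressed, and neuroblast 1 was above neuroblast 2 in 29 of 29, with a median log2 difference of 1.26. Neuroblast 3 was not low for these, with a median of 56.1 FPKM against 56.7 and 26.8 FPKM in neuroblast 1 and 2. On XHet the 6 expressed genes had a median difference of 0.23. Of the 51 genes that set neuroblast 1 highest, 13 lay on chromosome 4 and 6 on heterochromatic arms, and of the 158 that set neuroblast 2 lowest 7 and 11 did, against 45 and 29 of all 5029 genes with a mean of at least 10 FPKM. Those that set neuroblast 1 highest included the homeobox gene scro (3LHet) with 51.6, 8.65 and 4.62 FPKM, the synaptic gene unc-13 (chromosome 4) with 58.9, 17.0 and 4.57 FPKM and pan, the Wnt pathway factor gene of chromosome 4, with 52.9, 16.8 and 5.65 FPKM. The most abundant genes of chromosome 4 were different. RpS3A read 1385, 1632 and 3652 FPKM and ATPsyn-beta 701, 559 and 1383 FPKM, each highest in neuroblast 3.

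The neuron libraries showed the same arms moving between their own replicates. Of the 57 chromosome 4 genes 52 were higher in neuron 2 than in neuron 1, with medians of 79.8 and 31.6 FPKM and a median log2 difference of 1.17, against -0.01 on the large arms. For the heterochromatic autosome arms 28 of 29 were higher in neuron 2, by a median of 1.39. Relative to the large arms, the difference between neuroblast 1 and 2 on chromosome 4 was 0.99. In expressed genes whose neuron mean lay under neuroblast 3, a choice made after seeing the data, it was 0.45. In them neuroblast 1 was above neuroblast 2 for 12 of 13 chromosome 4 genes and for 64.6% of those on the large arms. The choice rests on neuron values, which themselves differed between replicates on chromosome 4. It kept 13 of 57 genes there and 3598 of 5244 on the large arms, so no conclusion is drawn from the change. The summed neuron markers, 296 FPKM in neuroblast 1 and 162 FPKM in neuroblast 2, were also higher in neuroblast 1. Their part in the difference on chromosome 4 was not tested. The expressed genes of chromosome 4 were also longer, with a median of 3550.2 bases against 1880.5 bases on the large arms.

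**Figure D5:**
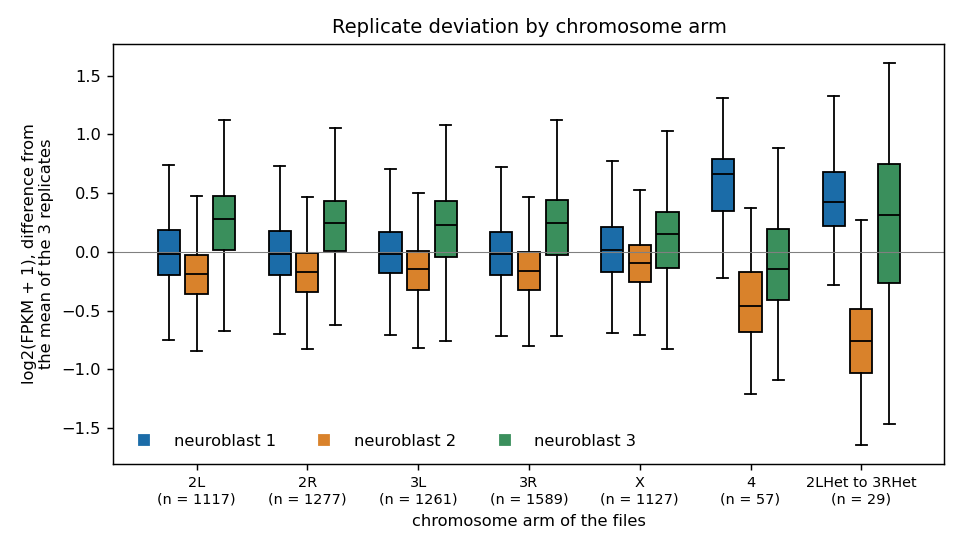
Difference of each replicate from the mean of the 3 on the log2(FPKM + 1) scale (vertical) for the expressed genes of each chromosome arm, with boxes from the lower to the upper quartile, the median as a line, and genes beyond the whiskers not drawn. On chromosome 4 and the heterochromatic autosome arms the boxes of neuroblast 1 lie above those of neuroblast 2, while the large arms and the X are alike.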

How the data were processed

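Per the file headers, every deposited library table comes from Cufflinks and gives each gene an FPKM, a confidence interval and a status flag. FPKM as the authors made it is scaled to gene length and to mapped fragments. The submitters' processing notes name Cufflinks 1.3.0, TopHat 1.4.1, DESeq 1.8.3, BWA 0.6.1 and HTSeq, without their roles. RNA was about 1 µg in total per library, extracted with Trizol, and dUTP marked the strand, per the labels' protocols. Neither the genome build nor any use of the strand in counting is given in the sources used here, and genes that overlap on opposite strands are therefore uncertain. The authors' deposited comparison table was not used here.

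Technical replicates were averaged on the FPKM scale. Expressed means at least 1 FPKM in all 3 replicates. SDs of log2 values use log2(FPKM + 1). Fragments were read from the interval, taken as 2 SD of a count, and under 200 fragments 91.0% to 91.6% of the values were whole numbers within 0.05. A status that was not OK occurred in 75 genes, 35 of them expressed. An Ensembl annotation of another build, release 115, was used for transcript lengths, overlaps, biotypes and names, and 13575 of 14210 identifiers had an entry. Shares and families count each gene once. Python 3.11.15, numpy 2.4.6, pandas 2.3.3 and matplotlib 3.10.9 were used, and the scripts were tested on simulated data. No test between groups was run.

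The members and the 27 gene lists were chosen with earlier results of these data known. The rule for named genes took the 5 markers, the 10 highest genes by mean, with and without ribosomal proteins, up to 4 highest members of each list, and, at a mean of at least 10 FPKM, the 10 genes of smallest and of largest SD and the 5 farthest above and below the others per replicate. Further list members named for their role, roX1, roX2, RpS3A and the overlapping genes were chosen after their values were seen. Alternatives covered the threshold, the filter, the pseudocount, the scaling, technical replicates and each replicate left out.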

Additional observations from a re-analysis of the deposited data

How the results depend on the processing

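No paired analysis was possible because each result describes levels within 1 cell type and comes from no test. Of the alternatives to shares, marker levels, the median SD and the chromosome 4 difference, 84 stayed within 1 SD of the main value and 9 moved. For other single genes 70 of 70 stayed within it. For the level of a gene this SD is that of the same 3 replicates. Leaving out 1 of them cannot move the mean that far, so these alternatives could not fail and show no stability. The 8 alternative counts of expressed genes, from 5446 (at 5 FPKM) to 6995 (in at least 2 replicates), were within 1.5 times 6463. Over protein-coding genes only, ribosomal proteins held 31.0% of FPKM instead of 28.3% and DNA replication genes 0.908% instead of 0.830%, since the denominator lost the noncoding genes. Without CR34335 and CR40469, an alternative chosen after seeing the data, ribosomal proteins held 29.9% and noncoding genes 3.71% instead of 8.37%. With no filter the median SD was 0.18 instead of 0.35, since genes at or near 0 were included. Leaving out each replicate in turn, the median SD ran from 0.18 (without neuroblast 3) to 0.37, and the share of expressed neuron markers from 0.0151% to 0.0438% (without neuroblast 3), against 0.0206% with all 3, since more markers then reach 1 FPKM in every replicate left. The chromosome 4 difference, whose alternatives were chosen after seeing the data, was 0.45 instead of 0.99 in the 13 genes with a neuron mean under neuroblast 3 and 0.39 in the 8 with a neuron mean under all 3 replicates. The latter choice depends on the neuroblast 1 and 2 values themselves, and the former on neuron values that differed between replicates on chromosome 4. No comparison is drawn from either, and the cause of the difference was not tested. Without neuroblast 3 the mean of CR34335 was 5807 instead of 19193 FPKM, that of CR40469 2851 instead of 14279 FPKM, and the expressed genes numbered 6902. Values near 1 FPKM rest on few fragments in neuroblast 1 and 2, and 3 replicates give an SD of low precision.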
